A study of Homo sapiens with 6 samples.

Results

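The genes described here are 42 genes of protein folding in the endoplasmic reticulum (ER) and of the unfolded protein response, picked by symbol from a table of 60605 genes. All 42 were matched to 1 row each. Of these, 41 passed the filter on low counts and were tested, and DERL3 had 0 counts in every library. RNA was sequenced from the UMUC3 line of human bladder cancer cells, which had been infected either with TIM-1-PLVX-IRES-zsgreen, a vector that encodes the cell surface receptor TIM-1 and the fluorescent protein ZsGreen, or with PLVX-IRES-Zsgreen, the same vector without TIM-1. Each group held 3 libraries, numbered 1 to 3. All 6 libraries thus carry the vector backbone and ZsGreen, and the labels say neither whether the cells were clonal nor whether libraries of a group began as separate cultures. The p-values therefore describe how much these libraries vary, part of which may be technical.

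Proteins that enter the secretory route are threaded into the ER through the SEC61 channel, folded by chaperones of the HSP70 and HSP90 families and by disulfide isomerases, and, if they fail to fold, drawn back to the cytosol and destroyed, a process called ER-associated degradation (ERAD). When unfolded proteins accumulate, 3 membrane sensors respond. ATF6 moves to the Golgi, where the proteases encoded by MBTPS1 and MBTPS2 release a transcription factor that acts mainly on chaperone genes. IRE1, encoded by ERN1, splices XBP1 mRNA so that it encodes a transcription factor for genes of translocation, trafficking and degradation, and PERK, encoded by EIF2AK3, slows translation and favours ATF4 and DDIT3. Tumour cells with a heavy secretory load often rely on these pathways. Gene counts do not tell spliced from unspliced XBP1 mRNA. For this description, each gene was placed in 1 of 5 sets by its textbook role, although many answer to more than one sensor: 8 genes of the ATF6 arm, 9 of the XBP1 arm, 12 of the degradation arm, 8 sensors and transcription factors, and 5 other folding enzymes.

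Promoters of the ATF6 arm often held the DNA elements for which this response is known, and the stretches around them are shown for all 6 such genes of that arm and for HERPUD1, the one such gene of the degradation arm. The elements searched, on both strands of the 250 bases before each RefSeq start (GRCh38.p14), were the ER stress element (ERSE, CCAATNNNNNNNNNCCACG), ERSE-II (ATTGG, any 1 base, then CCACG) and the unfolded protein response element (UPRE, TGACGTGG). A promoter was listed for 39 of the 42 genes. At least 1 element stood in 6 of 8 promoters of the ATF6 arm (HSPA5, HSP90B1, HYOU1, PDIA6, SDF2L1 and CRELD2). It stood in 0 of 8 of the XBP1 arm, in 1 of 10 of the degradation arm (HERPUD1), in 0 of 8 of the sensors, and in 2 of 5 of the other enzymes (ERO1B and DNAJC10). Among all 27305 listed promoters 217 held one, or 0.795%. Capitals mark the elements, written 5′ to 3′ on the strand of the gene.
HSPA5: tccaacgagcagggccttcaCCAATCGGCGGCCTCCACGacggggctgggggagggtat
HSP90B1: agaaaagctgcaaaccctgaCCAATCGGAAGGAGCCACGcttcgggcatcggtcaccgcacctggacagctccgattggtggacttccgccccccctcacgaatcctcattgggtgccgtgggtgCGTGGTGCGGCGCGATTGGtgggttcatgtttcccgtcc
HYOU1: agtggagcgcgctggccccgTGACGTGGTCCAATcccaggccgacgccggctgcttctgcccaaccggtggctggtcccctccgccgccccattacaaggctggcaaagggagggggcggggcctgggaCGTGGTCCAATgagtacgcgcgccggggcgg
PDIA6: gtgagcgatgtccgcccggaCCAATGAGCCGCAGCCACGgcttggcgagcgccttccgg
SDF2L1: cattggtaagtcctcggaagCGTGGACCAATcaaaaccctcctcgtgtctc
CRELD2: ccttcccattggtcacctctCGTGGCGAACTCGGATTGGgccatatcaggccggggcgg
HERPUD1: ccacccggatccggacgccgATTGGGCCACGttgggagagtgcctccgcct
These stretches lie at chr9:125241371-125241429 (minus strand), chr12:103930196-103930359 (plus), chr11:119057254-119057413 (minus), chr2:10812833-10812891 (minus), chr22:21642094-21642144 (plus), chr22:49918534-49918592 (plus) and chr16:56932005-56932055 (plus). The ERSE of HSPA5 spans positions -66 to -48 from the start. HSP90B1 carried 2 ERSE copies, at -194 to -176 and, on the reverse strand, at -89 to -71. HYOU1 carried 2 reverse ERSE-II copies, the first of which overlaps a UPRE. A match is a description of letters and does not show that a factor binds there.

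The libraries were sequenced to between 14312387 and 18605914 counts. Counts of HAVCR1, the gene of TIM-1, were 7069, 9824 and 11479 in replicates 1, 2 and 3 with TIM-1, against 4, 0 and 0 in replicates 1, 2 and 3 with the empty vector. Replicate 1 differed from the other replicates in each group, as described below. Its libraries had the lowest totals of the 6 libraries, 14312387 with TIM-1 and 15651864 with the empty vector. The share of counts from the 10 most abundant genes was 7.01% and 6.81% in replicate 1 of the TIM-1 and empty-vector groups, against 7.03% to 7.76% in the other 4 libraries. The share of mitochondrially encoded genes was 4.38% and 4.20% in replicate 1, against 4.22% to 5.08% in the other 4 libraries. The part of these properties in the results below was not tested. Markers of other cell types were at or near 0: the immune markers PTPRC, CD3E and LYZ and the endothelial marker CDH5 had 0 counts in every library. The markers of bladder epithelium were uneven. The keratins KRT8 (42.9 to 49.95 CPM) and KRT18 (272 to 511 CPM) were present, with 0 counts in every library for EPCAM and UPK3A and at most 0.138 CPM for CDH1. These keratins were the only 2 of 7 epithelial markers that passed the filter on low counts. Of 7 urothelial markers 4 passed the filter on low counts, of which PPARG was the highest at 4.38 to 8.42 CPM, with GATA3 at 0.648 to 2.35 CPM. All 4 mesenchymal markers passed that filter, and VIM stood between 1413 and 2121 CPM. CPM are counts scaled to a common library size, with the trimmed mean of M-values (TMM) as composition factor.

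The ER genes spanned a wide range of levels. Per kilobase of annotated exon, HSPA5, the HSP70 chaperone of the ER lumen also called BiP, averaged 547 CPM per kilobase over the 6 libraries and ranked 47 of 14368 genes. It was followed by PDIA4 at 176 and HSP90B1 at 163 CPM per kilobase, a disulfide isomerase and the ER member of the HSP90 family, which ranked 186 and 208. The channel subunit gene SEC61A1 stood at 90.8, and the isomerase genes PDIA6 and P4HB at 76.7 and 76.2 CPM per kilobase. The sensors were far lower, with ATF6 at 8.003 and ERN1 at 1.502 CPM per kilobase. CNPY2 was the lowest tested member, at 0.906 CPM per kilobase. CNPY2 lies within another annotated gene on the same strand, and its reads may have been left out or assigned there.

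Between TIM-1 and empty-vector cells, none of the 41 tested ER genes passed the test with unpaired libraries. The background was low too: 0.0138% of the 14479 tested genes were higher and 0% lower (edgeR quasi-likelihood test, adjusted p under 0.05). By that test 2 members had an unadjusted p under 0.05, ATF6B and ERO1B, against 5.49% of all tested genes. The 3 TIM-1 libraries lay above the 3 empty-vector libraries for 3 members (ATF6B, ERO1B and OS9), where 6.6% of all genes did so, and below them for 0 members, where 5.06% of all genes did so. DESeq2 without pairing called 0 members too, where 24 of all genes were higher and 1 was lower. The edgeR test within replicates 2 and 3 alone also called 0 members, where 175 of all genes were higher and 82 lower. With backgrounds this low, a count of 0 among 41 members says little about the members. The median log2 fold change of the members was 0.01, against -0.00075 over all tested genes, and single members ran from -0.48 for CNPY2 to 0.39 for ERO1B. The arms had medians of 0.05 (ATF6), 0.003 (XBP1) and -0.05 (degradation).

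HSPA5, the gene most widely read as a gauge of ER stress, had nearly the same average in both groups. Its level was 1025, 2798 and 2676 CPM in TIM-1 replicates 1, 2 and 3, against 947, 2655 and 2730 CPM in empty-vector replicates 1, 2 and 3. The low library in each group was replicate 1, and the groups overlapped. TIM-1 libraries averaged 2166.3 ± 990.3 CPM and empty-vector libraries 2111 ± 1008 CPM (SD, n = 3 each), a log2 fold change of 0.04 (SE 0.58, edgeR adjusted p = 0.995). With same-numbered libraries taken as pairs, the value was 0.05 with a far smaller error (SE 0.06, edgeR adjusted p = 0.687). HSP90B1, PDIA4 and PDIA6 had log2 fold changes of 0.09, 0.14 and 0.12, none of which passed. In the XBP1 arm, DNAJB9, a co-chaperone of HSPA5 that also restrains IRE1, had a log2 fold change of -0.11 and SEC61A1 one of -0.18. In the degradation arm, HERPUD1 had one of -0.05, and SELENOS and SELENOK, which encode selenoproteins of the ER membrane, had -0.22 and 0.20. XBP1 stood at -0.10, ATF6 at 0.05 and ERN1 at 0.05. SYVN1, DERL1 and DNAJC10 had -0.14, -0.17 and -0.16, and the members not named in this comparison lay between -0.08 and 0.15.

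**Figure D1:**
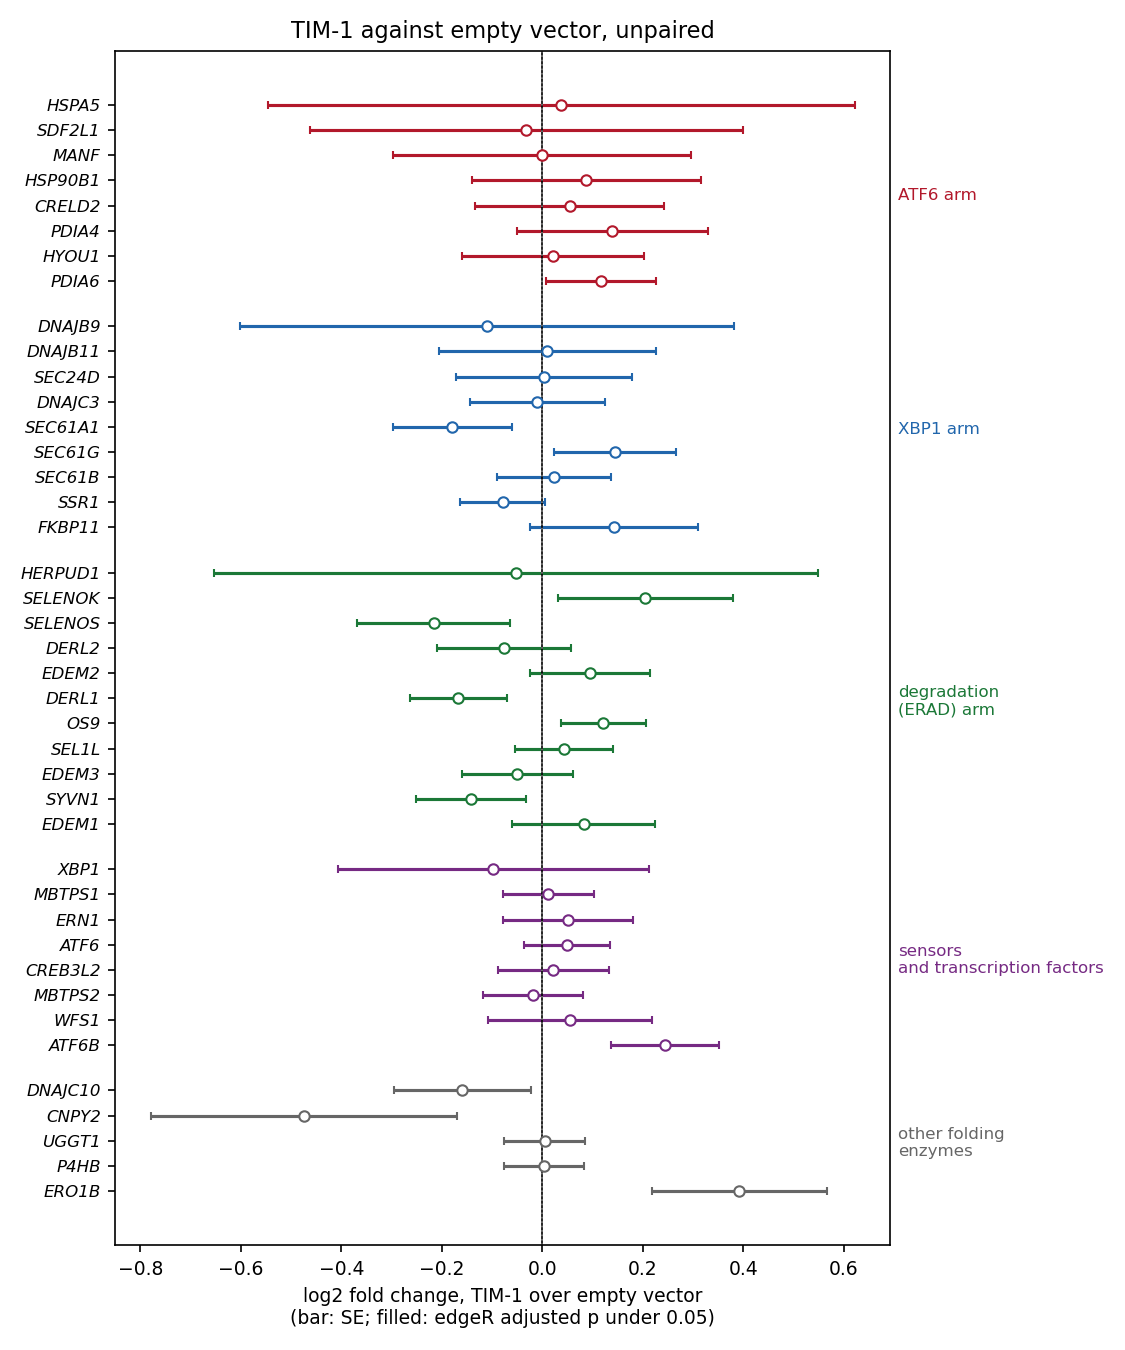
Log2 fold change of TIM-1 over empty vector (x axis) for the 41 tested ER genes (rows, grouped by role), from the unpaired test with 3 libraries in each group. Bars are standard errors and open points mark genes that did not pass the test. All points are open, and the widest bars belong to HSPA5, HERPUD1 and DNAJB9.

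ATF6B, which encodes a close relative of ATF6 made as a membrane-bound precursor, was the only one of the 42 genes to pass when same-numbered libraries were taken as pairs. Its level was 66.9, 57.5 and 55.7 CPM in TIM-1 replicates 1, 2 and 3, against 55.1, 49.0 and 47.8 CPM in empty-vector replicates 1, 2 and 3. TIM-1 was higher in each of the 3 pairs and the groups did not overlap. The log2 fold change was 0.24 in both fits (SE 0.11 and edgeR adjusted p = 0.891 unpaired, SE 0.08 and edgeR adjusted p = 0.0496 paired). With the pairs, 1 of 41 ER genes was higher and 0 were lower, where 3.22% and 1.79% of all tested genes were. Taken as pairs in DESeq2, 0 members were called, where 131 of all genes were higher and 78 lower. The edgeR call was lost with any 1 of the 3 pairs left out, and with a term that only set replicate 1 against the others (edgeR adjusted p = 0.0703), a fit in which 0 members were called and 2.4% of all genes were higher and 1.12% lower, and the span of ATF6B overlaps that of TNXB on the same strand. ERO1B, an oxidase that recharges disulfide isomerases, had 7.31, 7.43 and 7.83 CPM in TIM-1 replicates 1, 2 and 3, against 6.64, 5.19 and 5.37 CPM in empty-vector replicates 1, 2 and 3. The groups did not overlap, and the log2 fold change of 0.39 passed neither test (SE 0.17 in both; edgeR adjusted p = 0.891 unpaired and 0.179 paired). The lectin gene OS9, with 151, 153 and 155 CPM in TIM-1 replicates 1, 2 and 3, against 129, 143 and 149 CPM in the empty-vector replicates, had a log2 fold change of 0.12 (edgeR adjusted p = 0.914).

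The larger contrast lay between replicate 1 and replicates 2 and 3, where ER chaperone genes were lower in replicate 1 of both groups. In a fit that also held the group, 19 of 41 ER genes were lower in replicate 1 and 2 were higher, where 12% of all tested genes were lower and 11.6% higher (edgeR quasi-likelihood test, adjusted p under 0.05). Summed over all 42 genes, the level was 5439 and 5219 CPM in replicate 1 of the TIM-1 and empty-vector groups, against 8453, 8264, 8198 and 8379 CPM in TIM-1 replicates 2 and 3 and empty-vector replicates 2 and 3, and the ATF6 arm made up 2725, 2575, 5373, 5180, 4994 and 5147 CPM of these sums, in the same order. The median log2 difference was -0.23 over the members and -0.0074 over all tested genes. Differences of at least 2-fold were found for 4 members, HERPUD1, HSPA5, DNAJB9 and SDF2L1, where 1.64% of all genes were that much lower. Both replicate 1 libraries lay below the other 4 libraries for 23 members, where 20.4% of all genes did so. Between replicates 2 and 3, 0 members differed, and 0.0207% of all genes were higher and 0.0207% lower. The labels do not say what sets replicate 1 apart. This split was chosen with earlier results of these data known. Its p-values are therefore not those of a contrast set in advance. In bulk RNA, fewer cells with a transcript and less of it per cell cannot be told apart.

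All 8 genes of the ATF6 arm were lower in replicate 1, where 12% of all tested genes were, with a median log2 difference of -0.59. The 2 replicate 1 libraries lay below the other 4 for each of the 8, where 20.4% of all tested genes did so. The HSPA5 levels given above, 1025 CPM (TIM-1) and 947 CPM (empty vector) in replicate 1 against 2655 to 2798 CPM in the other 4 libraries, amount to a 2.75-fold lower level (log2 difference -1.46, SE 0.06, edgeR adjusted p = 1.51e-14). HSPA5 took 0.104% and 0.0966% of all counts in TIM-1 and empty-vector replicate 1, against 0.264% to 0.280% in the others. SDF2L1, a partner of the ER HSP70 system, had 37.2 and 39.4 CPM in replicate 1 of the TIM-1 and empty-vector groups, against 82.2, 83.1, 77.5 and 90.4 CPM in TIM-1 replicates 2 and 3 and empty-vector replicates 2 and 3. Its difference was -1.12 on the log2 scale (SE 0.09, edgeR adjusted p = 5.92e-10). MANF, a secreted factor that binds HSPA5, had 71.8 and 75.3 CPM in replicate 1, against 125 to 136 CPM in the other 4 libraries (log2 difference -0.82).

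HSP90B1 had 565 and 551 CPM in replicate 1 of the TIM-1 and empty-vector groups, against 832 to 932 CPM in the other 4 libraries (log2 difference -0.64, SE 0.06). PDIA4 had 457 and 425 CPM in replicate 1, against 582 to 685 CPM (log2 difference -0.55). In both, the 2 replicate 1 libraries were the lowest. CRELD2, which encodes a calcium-binding ER protein, had 53.7 and 50.5 CPM in replicate 1, against 74.6 to 80.0 CPM in the other 4 (log2 difference -0.55). HYOU1, a large HSP70 relative, had 237 and 214 CPM, against 314 to 335 CPM (log2 difference -0.52). Replicate 1 was again lowest in these. PDIA6 had the smallest difference of the arm, with 279 and 272 CPM in replicate 1 of the TIM-1 and empty-vector groups, against 312 to 356 CPM in the other 4 libraries (log2 difference -0.28, SE 0.06, edgeR adjusted p = 0.00244). Without TIM-1 replicate 1 that call was lost (edgeR adjusted p = 0.121), while the other 7 genes of the arm stayed lower with any 1 of the 6 libraries left out. In these 8 genes the order of the differences did not follow the levels: SDF2L1, at 62.2 CPM per kilobase, differed more than HSP90B1, at 163.

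**Figure D2:**
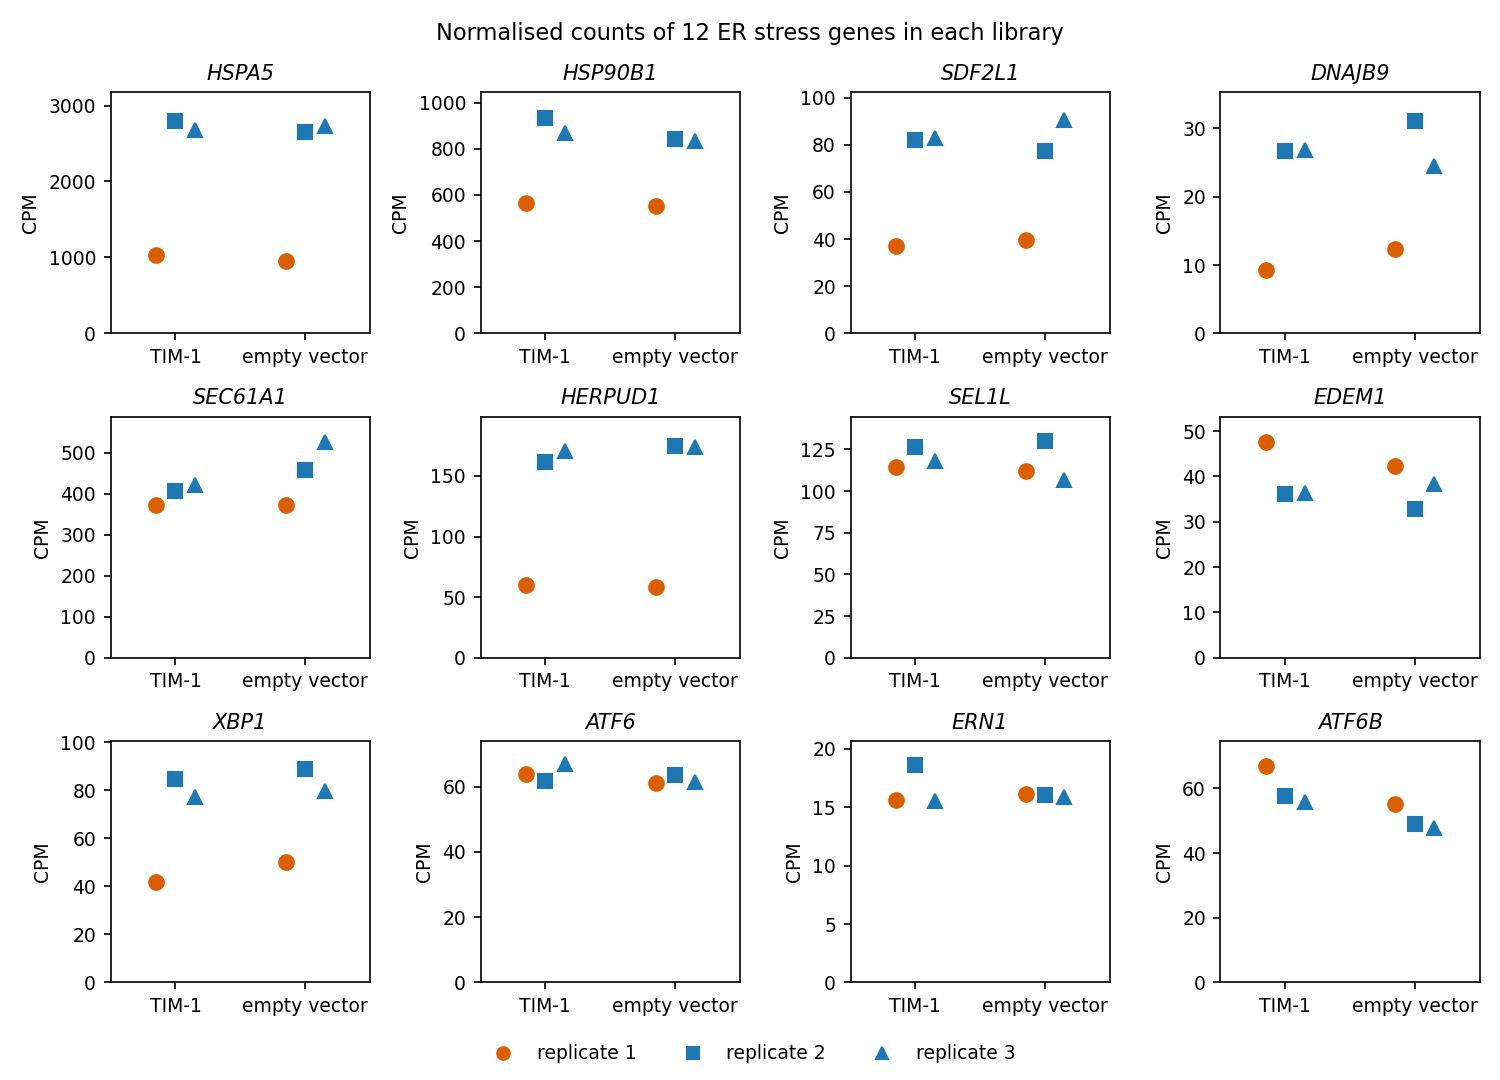
Normalised counts in CPM (y axis, from 0) of 12 ER genes in each of the 6 libraries, with TIM-1 on the left and the empty vector on the right of each panel and 1 symbol for each replicate number. In HSPA5, HSP90B1, SDF2L1, DNAJB9, HERPUD1 and XBP1 both replicate 1 points lie well below the others, whereas ATF6 and ERN1 show no such gap.

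The XBP1 arm was lower in replicate 1 for 5 of its 9 genes, where 12% of all tested genes were, with a median of -0.28. That median was -0.40 without TIM-1 replicate 1 and -0.15 without empty-vector replicate 1. It was -0.15 within the TIM-1 libraries and -0.40 within the empty-vector libraries. DNAJB9 had 9.24 and 12.4 CPM in replicate 1 of the TIM-1 and empty-vector groups, against 26.7, 26.8, 31.0 and 24.6 CPM in TIM-1 replicates 2 and 3 and empty-vector replicates 2 and 3 (log2 difference -1.33, SE 0.13, edgeR adjusted p = 5.01e-08). DNAJB11, another HSPA5 co-chaperone, had 64.0 and 62.3 CPM in replicate 1, against 89.8 to 104 CPM in the other 4 libraries (log2 difference -0.61). SEC24D, a cargo-selecting coat subunit of vesicles that leave the ER, had 21.9 and 22.2 CPM, against 28.4 to 32.5 CPM (log2 difference -0.47). Replicate 1 was below all other libraries in these 3 genes. DNAJC3, a co-chaperone that is also known as an inhibitor of PERK, had 61.2 and 57.3 CPM in replicate 1, against 70.7 to 81.3 CPM (log2 difference -0.33). SEC61A1 had 372 and 373 CPM in replicate 1 of the TIM-1 and empty-vector groups, against 406 and 422 CPM in TIM-1 replicates 2 and 3 and 459 and 527 CPM in empty-vector replicates 2 and 3 (log2 difference -0.28). SEC24D was lost without either replicate 1 library (edgeR adjusted p = 0.0571 without that of TIM-1 and 0.0540 without that of the empty vector), and DNAJC3 and SEC61A1 were lost without empty-vector replicate 1 (edgeR adjusted p = 0.176 and 0.376). The small channel subunits SEC61B and SEC61G and the translocon-associated SSR1 had differences of -0.17, -0.19 and -0.14, which did not pass. SSR1 still had its lowest libraries in replicate 1, with 213 and 225 CPM, against 227 to 255 CPM in the other 4, whereas both SEC61 subunits overlapped. FKBP11, a prolyl isomerase, had 27.3 and 23.5 CPM in replicate 1, against 18.1 to 24.1 CPM in the other 4 libraries. The ranges overlapped, and its log2 difference of 0.31 did not pass (edgeR adjusted p = 0.0607).

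Of the 11 tested genes of the degradation arm, 4 were lower in replicate 1 and 1 was higher, with a median of -0.14. Among all tested genes 12% were lower and 11.6% higher. The order of the XBP1 and degradation arms was not stable. Within TIM-1 libraries the medians of these 2 arms were -0.15 and -0.17, and without members that belong to several arms -0.19 and -0.23. The members left out there were PDIA6, DNAJC3, DNAJB11, HERPUD1, SEL1L, SYVN1 and EDEM1. Of these, SEL1L, SYVN1 and EDEM1 were not called lower in replicate 1, so that median depends on which genes are left out. HERPUD1, a ubiquitin-like membrane protein that organises the degradation complex, had the largest difference of all members. It had 59.8 and 58.3 CPM in replicate 1 of the TIM-1 and empty-vector groups, against 162, 171, 175 and 174 CPM in TIM-1 replicates 2 and 3 and empty-vector replicates 2 and 3. That was 2.88-fold lower (log2 difference -1.53, SE 0.07, edgeR adjusted p = 1.45e-13), rank 78 from the lowest of 14479 genes, with HSPA5 at rank 84. SELENOK, SELENOS and DERL2, which encode membrane partners of the retrotranslocation channel, followed. SELENOK had 25.2 and 22.9 CPM in replicate 1 of the TIM-1 and empty-vector groups, against 27.1 to 36.2 CPM in the other 4 libraries (log2 difference -0.45). SELENOS had 25.9 and 28.6 CPM, against 30.4 to 40.2 CPM (log2 difference -0.38), and DERL2 had 56.0 and 66.6 CPM, against 74.0 to 80.1 CPM (log2 difference -0.33). None of the 3 had an overlap between replicate 1 and the rest.

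EDEM1, a mannosidase-like protein that sends glycoproteins to degradation and a known XBP1 target, went the other way. Its level was 47.6 and 42.2 CPM in replicate 1 of the TIM-1 and empty-vector groups, against 32.8 to 38.3 CPM in the other 4 libraries, with no overlap (log2 difference 0.32, SE 0.09, edgeR adjusted p = 0.0120). The core of the ubiquitin ligase did not pass: SEL1L, its scaffold, had 114 and 112 CPM in replicate 1, against 106 to 130 CPM (log2 difference -0.09), and SYVN1, the ligase itself, had 35.6 and 33.3 CPM, against 31.4 to 38.5 CPM (-0.03). Replicate 1 lay within the range of the others in both. The span of SYVN1 overlaps that of FAU on the same strand, and reads shared with FAU may have been left out or assigned there. EDEM2, EDEM3, OS9 and DERL1 had -0.23, -0.04, -0.10 and -0.14 and did not pass. Calls in this arm were less stable than that of HERPUD1: SELENOS, SELENOK and EDEM1 were lost without either replicate 1 library (edgeR adjusted p from 0.0505 to 0.237), EDEM1 also without TIM-1 replicate 3 (edgeR adjusted p = 0.0511), and DERL2 without TIM-1 replicate 1 (0.227).

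**Figure D3:**
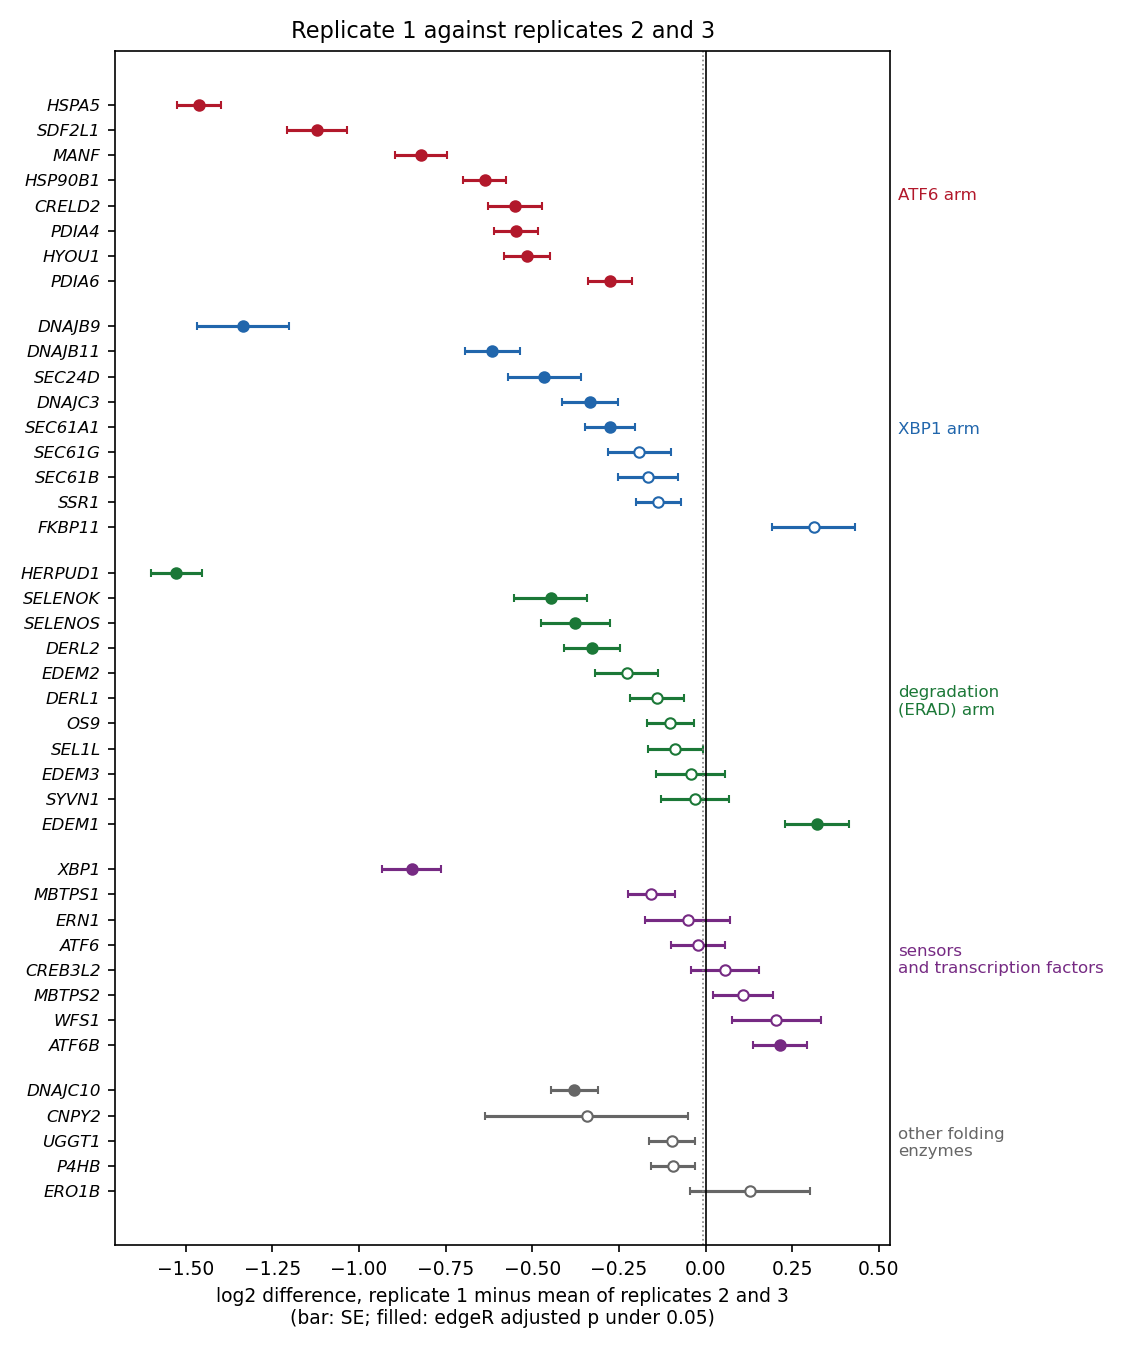
Log2 difference between replicate 1 and the mean of replicates 2 and 3 (x axis) for the 41 tested ER genes, grouped by role, with the group as a term in the fit. Bars are standard errors and filled points passed the test. The 8 filled points of the ATF6 arm are all left of 0, from HSPA5 at -1.46 to PDIA6 at -0.28, while the degradation arm runs from HERPUD1 at -1.53 to EDEM1 at 0.32.

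Among sensors and transcription factors, XBP1 alone was lower in replicate 1. It had 42.02 and 49.99 CPM in replicate 1 of the TIM-1 and empty-vector groups, against 84.8, 77.2, 89.0 and 79.6 CPM in TIM-1 replicates 2 and 3 and empty-vector replicates 2 and 3 (log2 difference -0.85, SE 0.09, edgeR adjusted p = 6.38e-08). The groups of libraries did not overlap. ATF6 had 64.0 and 61.1 CPM in replicate 1, against 61.5 to 66.9 CPM in the other 4 (log2 difference -0.02, SE 0.08), and ERN1 had 15.7 and 16.2 CPM, against 15.5 to 18.6 CPM (log2 difference -0.05, SE 0.12). ATF6B was higher in replicate 1, with 66.9 and 55.1 CPM in replicate 1 of the TIM-1 and empty-vector groups, against 47.8 to 57.5 CPM in the other 4 libraries, and the ranges overlapped. Its log2 difference of 0.21 (edgeR adjusted p = 0.0491) was a call that was lost by DESeq2 (adjusted p = 0.113), without the low-count filter (edgeR adjusted p = 0.125) and with 5 of the 6 libraries left out singly, for all but empty-vector replicate 3. The protease genes did not pass: MBTPS1 had 143 and 134 CPM in replicate 1, against 151 to 159 CPM in the other 4 libraries (log2 difference -0.16), and MBTPS2 had 44.2 and 43.7 CPM, against 38.9 to 42.7 CPM (0.11). CREB3L2, a membrane-bound transcription factor of secretory cells, had 31.9 and 34.6 CPM, against 29.002 to 34.3 CPM (0.06). WFS1, an ER membrane protein of calcium handling, had 39.0 and 30.4 CPM, against 26.4 to 36.2 CPM (0.20), and neither of these passed.

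Of the other folding enzymes, DNAJC10, a reductase that assists degradation, was lower in replicate 1. Its level was 137 and 159 CPM in replicate 1 of the TIM-1 and empty-vector groups, against 178 to 208 CPM in the other 4 libraries (log2 difference -0.38, SE 0.07, edgeR adjusted p = 0.000228). P4HB, the archetypal disulfide isomerase, had 405 and 369 CPM in replicate 1, against 400 to 427 CPM (log2 difference -0.09), and UGGT1, the glucosyltransferase that checks glycoprotein folding, had 162 and 155 CPM, against 166 to 173 CPM (-0.10). Neither passed the test. CNPY2 had 2.35 and 2.13 CPM in replicate 1, against 1.67 to 3.80 CPM, and with ERO1B (log2 differences -0.34 and 0.13) did not pass.

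**Figure D4:**
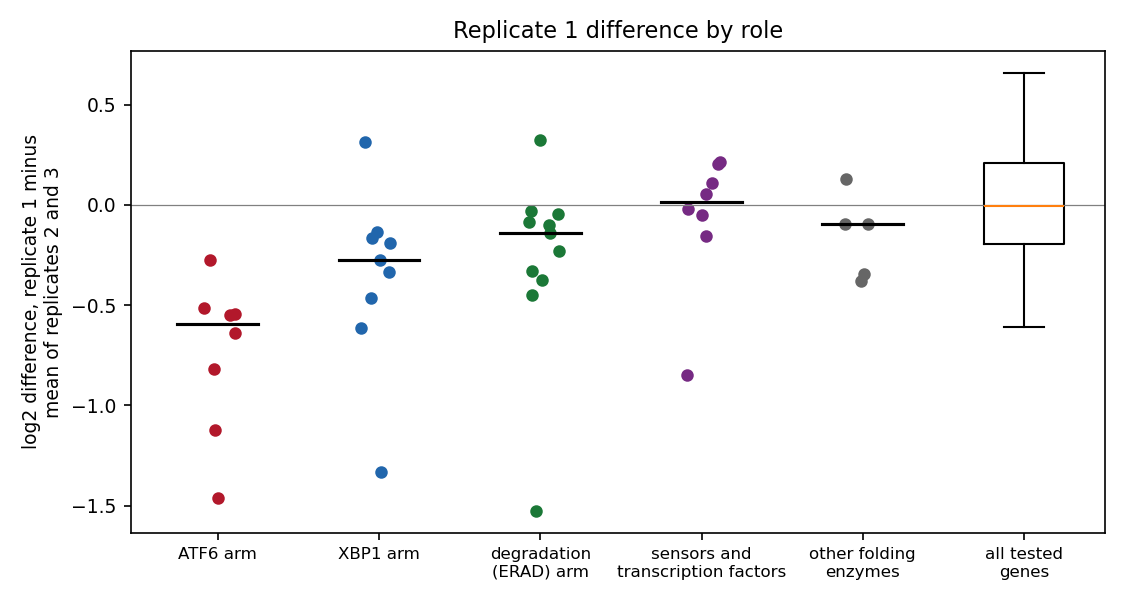
Log2 difference between replicate 1 and replicates 2 and 3 (y axis) for each tested ER gene by role, with the median as a black line, beside a box of all 14479 tested genes (box: quartiles; whiskers: 5th to 95th percentile). Medians were -0.59 in the ATF6 arm, -0.28 in the XBP1 arm, -0.14 in the degradation arm, 0.02 in the sensors and -0.10 in the other enzymes, and the XBP1 and degradation arms changed places in some settings.

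No ER gene had a replicate 1 difference that passed a test of its change between TIM-1 and empty-vector cells. Fitted within each group, 15 ER genes were lower in replicate 1 of the TIM-1 libraries and 15 in that of the empty-vector libraries. Of all 14479 tested genes, 680 and 827 were lower in the same 2 fits. Of the ER genes, 12 were lower in both, where 2.70% of all tested genes were: 7 in the ATF6 arm, 2 in the XBP1 arm, and HERPUD1, XBP1 and DNAJC10. HSPA5 differed by -1.42 within TIM-1 and -1.51 within the empty vector, HERPUD1 by -1.47 and -1.58, and XBP1 by -0.95 and -0.75 on the log2 scale. For the difference of these differences, 0 of 41 members and 0% of all tested genes passed (edgeR quasi-likelihood test of the product of group and replicate 1), while 1 member, SEC61G, and 5.38% of all genes had an unadjusted p under 0.05. DESeq2 called 2 genes in all and 0 members. SEC61G differed by -0.0028 within TIM-1 and by -0.39 within the empty vector, and WFS1 by 0.44 and -0.04. Each replicate 1 value within a group rests on 1 library, whose spread was taken from the other libraries.

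**Figure D5:**
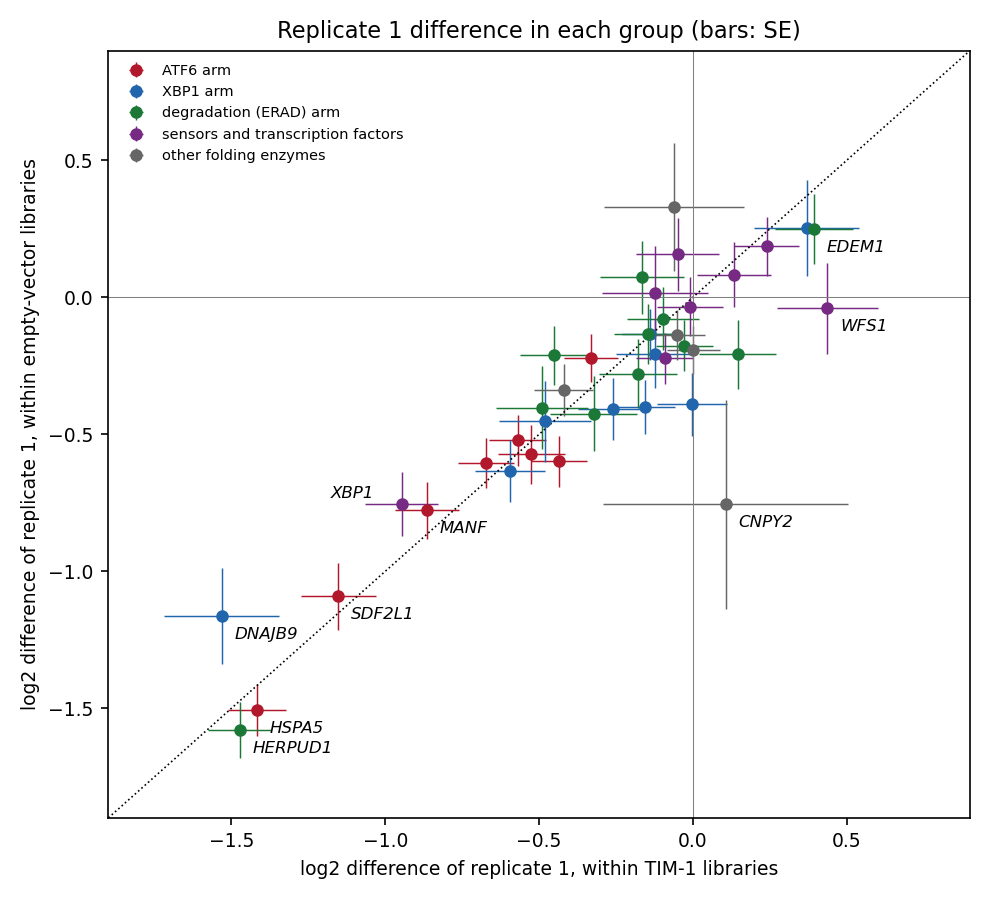
Log2 difference of replicate 1 from replicates 2 and 3 within TIM-1 libraries (x axis) and within empty-vector libraries (y axis) for the 41 tested ER genes, coloured by role, with standard errors as bars and the line of equal values dotted. HERPUD1, HSPA5, DNAJB9 and SDF2L1 lie at the lower left on both axes.

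Other genes of the pathway were set beside the 42. Of 89 such genes 87 were tested, and 0 passed in the unpaired test of TIM-1. With pairs, 2 were higher and 2 lower, a share near that of all tested genes (3.22% higher, 1.79% lower). The disulfide isomerase PDIA3 (log2 fold change 0.22) and the oxidase ERO1A (0.22) rose, and AUP1 (-0.23), a factor of degradation and lipid droplets, and TRIB3 (-0.29), a pseudokinase downstream of ATF4, fell (edgeR adjusted p from 0.0172 to 0.0294). In replicate 1, 21 of the 87 were lower and 4 higher, where 12% of all tested genes were lower and 11.6% higher, and the lists below are to be read against these shares. The PERK arm had 4 of 7 lower and 0 higher. DDIT3, the stress-induced transcription factor CHOP, had 7.04 and 8.08 CPM in replicate 1 of the TIM-1 and empty-vector groups, against 48.9, 55.9, 54.0 and 55.4 CPM in TIM-1 replicates 2 and 3 and empty-vector replicates 2 and 3. That was 7.08-fold lower (log2 difference -2.82, SE 0.12, edgeR adjusted p = 5.94e-15), more than any of the 42. PPP1R15A, which restores translation after PERK activity, differed by -1.03, TRIB3 by -0.48 and ATF4 by -0.30. EIF2AK3 itself, at a log2 difference of -0.03, did not pass. Of 25 tested genes of other folding steps 8 were lower and 2 higher, of 32 of translocation and export 8 were lower and 2 higher, and of 23 further degradation genes 1 was lower and 0 higher.

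Genes outside the 42 with the same promoter elements are counted here against the same 12% lower and 11.6% higher of all tested genes. Of 10 tested genes with an ERSE, 4 were lower in replicate 1 and 0 higher. The 4 were the lectin chaperones CALR and CANX, SERP1 and TRIM5, with log2 differences of -0.42, -0.40, -0.26 and -0.33. CALR, CANX and SERP1 are also among the other pathway genes counted above, so the 2 counts share genes. Of 9 with an ERSE-II, 0 were lower and 2 higher, GYS1 (0.80) and SHCBP1 (0.35), and of 75 with a UPRE, 8 were lower and 12 higher, shares near those of all genes. Within the 42, all 3 genes with an ERSE-II, 4 of 5 with an ERSE and both with a UPRE were lower in replicate 1. These genes were named after their values were seen.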

How the data were processed

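The authors deposited a table of raw counts with Ensembl genes in rows and the 6 libraries in columns. HISAT2 2.0.5, featureCounts 1.5.0-p3 and DESeq2 1.16.1, with build hg38, are named per the submitters' processing notes. No annotation, strand setting or treatment of multi-mapping reads is given in the sources used here, so reads of overlapping genes (such as CRELD2 with ALG12, DERL2 with MIS12 or DNAJB9 with THAP5) may be split or shared.

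Genes were filtered with filterByExpr (minimum count 10), which left 14479, and fitted in edgeR 4.0.16 under R 4.3.3 (quasi-likelihood F test, robust, TMM). Two-sided p-values were corrected (Benjamini-Hochberg) across the 14479 genes, and 0.05 was the limit for a call. Standard errors came from the F statistic. The replicate 1 term contrasts replicate 1 with the mean of replicates 2 and 3. The fits were also run on simulated data. For the unpaired and paired tests those data held no difference between replicate numbers, and for the product test none common to both groups. They therefore do not show what the unpaired test could detect here. Alternatives included DESeq2 1.42.0. Positions and exon lengths came from GENCODE 29 (GRCh38), promoters from RefSeq (GRCh38.p14). Promoters of 3 genes are not used here.

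Replicate numbers are shared by both groups. After subtraction of each group's mean, libraries with the same number correlated across genes at 0.59, 0.29 and 0.32 for replicates 1, 2 and 3, all above the limit of 0.1 set for taking them as pairs. TIM-1 replicate 3 with empty-vector replicate 2 reached 0.31, so replicates 2 and 3 are told apart weakly. Within-group pairs differed by more than sampling noise (chi-square per degree of freedom at least 4.21).

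The members, the sets, the lists and the contrast of replicate 1 with replicates 2 and 3 were chosen with earlier results of these data known. By rule, values by library are given for members past a test of TIM-1, sensors and XBP1, and, in each set, the 3 of highest CPM and the 3 of smallest p in the replicate 1 test (as the 2 replicate 1 values and the range of the others where shorter). Pathway genes outside the 42 were to be named where called, up to 3 per list. DDIT3, EIF2AK3, PPP1R15A, ATF4 and the promoter-element genes were named after their values were seen.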

Additional observations from a re-analysis of the deposited data

How the results depend on the processing

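Between TIM-1 and the empty vector, 2 genes were higher and 0 lower among all tested genes. The counts moved with the filter, the tool and the treatment of replicates: 60 and 12 without the low-count filter, 24 and 1 by DESeq2, 466 and 259 with a replicate block, 131 and 78 with that block in DESeq2, 348 and 162 with a replicate 1 term, and 175 and 82 within replicates 2 and 3 only (chosen after seeing the data). The block called 1 member higher (ATF6B), and 0 with any 1 pair left out. Leaving out 1 library gave 1 to 8 higher and 0 to 1 lower genes, and leaving out 1 pair under the block gave 152 to 440 and 57 to 398, with 339 and 134 without replicate 3. Members lower numbered 0 to 1 (SEC61A1, without replicate 1 under the block). Of 41 members, 26 changed sign under some setting, none of them called. With 1 library or pair left out, log2 fold changes of TIM-1 ran from -0.32 to 0.37 for HSPA5, -0.091 to 0.28 for HSP90B1, -0.018 to 0.30 for PDIA4, -0.41 to 0.24 for DNAJB9, -0.42 to 0.29 for HERPUD1 (0.0017 with the block without replicate 2), -0.31 to 0.15 for XBP1, -0.041 to 0.10 for ERN1 (-0.039 with the block without replicate 2), and -0.14 to 0.24, -0.14 to 0.13 and -0.12 to 0.058 for the medians of the ATF6, XBP1 and degradation arms. The extremes of HSPA5, HSP90B1, PDIA4, DNAJB9, HERPUD1 and XBP1 came from leaving out 1 replicate 1 library, which leaves the groups unequal in replicate 1. No other call among members changed with the block.

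Between replicate 1 and the others, 1673 genes were higher and 1740 lower; within TIM-1 the counts were 705 and 680, within the empty vector 796 and 827, and with 1 library left out 708 to 1963 and 670 to 2058. Members lower ran from 14 (without empty-vector replicate 1) to 20. Members higher, 2 in the reported fit, were 1 without the low-count filter and by DESeq2, 0 within TIM-1 and within the empty vector, and 0 to 4 with 1 library left out. The ATF6 arm's median was -0.55 without composition factors, -0.62 within TIM-1, -0.64 without members of several arms and -0.62 to -0.59 with 1 library left out. That of the XBP1 arm was -0.24, -0.15 and -0.19 in the same 3 settings, -0.40 within the empty vector and -0.40 to -0.15 with 1 library left out. That of the degradation arm was -0.21 within the empty vector, -0.23 without members of several arms and -0.21 to -0.11 with 1 library left out, and that of the other enzymes -0.19 and -0.19 to -0.050. The 10 members that changed sign were not called. Without composition factors SYVN1 was at 0.0075 and ATF6 at 0.018. Within TIM-1 SYVN1 was at 0.15, CREB3L2 at -0.050, P4HB at 0.0015, CNPY2 at 0.11 and ERO1B at -0.061. Within the empty vector EDEM3 was at 0.073, ERN1 at 0.017 and WFS1 at -0.041. With 1 library left out the ranges were -0.21 to 0.15 for SYVN1, -0.049 to 0.0047 for ATF6, -0.16 to 0.073 for EDEM3, -0.12 to 0.017 for ERN1, -0.041 to 0.44 for WFS1, -0.39 to 0.00026 for SEC61G, -0.046 to 0.16 for CREB3L2, -0.19 to 0.0047 for P4HB, -0.76 to 0.11 for CNPY2 and -0.058 to 0.33 for ERO1B. For the difference between groups in the replicate 1 contrast, 4 genes passed without the low-count filter and 2 by DESeq2, against 0. The cause of these shifts was not tested. Where 1 replicate 1 library was left, it was assumed to vary like the others. CNPY2 and ERO1B had the fewest CPM of the 41 tested members and the largest standard errors in the replicate 1 contrast (0.29 and 0.17 on the log2 scale), so their values are the least precise.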
